A study of Mus musculus with 14 samples.

Results

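miR-22 is a microRNA (miRNA) whose precursor hairpin gives a mature product from each arm, miR-22-3p and miR-22-5p. It was chosen by its level: miR-22-3p took a high share of the reads in libraries from the caput epididymis. The members are 2 of the 900 mature miRNAs listed for whole epididymal tissue and 2 of the 677 listed for isolated epididymal epithelial cells. Since the caput level was the reason for the choice, every value that sets the caput against another region is a description without a test. Corpus and cauda were compared by test, with the caput libraries entering the scaling and the shared estimate of the spread.

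A mature miRNA guides Argonaute proteins to messenger RNAs that pair with its seed, the bases near its 5′ end, and lowers their stability or translation. The gene of miR-22 is conserved among vertebrates and lies in an exon of a long noncoding host transcript, Mir22hg. In other tissues, heart and skeletal muscle among them, miR-22-3p is known as an abundant miRNA, and its reported targets include Hdac4 and Sirt1.

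The epididymis is the duct in which spermatozoa mature on their way from the caput (head) through the corpus (body) to the cauda (tail). Small RNA was sequenced from these 3 regions of male Swiss mice aged 8 weeks, in 2 preparations. Whole tissue gave 8 libraries (3 caput, 2 corpus and 3 cauda) and epithelial cells gave 6 (2 for each region). Each library came from RNA pooled over several mice, after the blood vessels had been perfused, so no value belongs to a single animal. Whole tissue kept its smooth muscle, vessels and luminal spermatozoa. For epithelial cells the spermatozoa of each region were flushed or washed out, and the tissue was minced and digested. By the study's account fibroblasts and muscle cells then attached to culture plates, and the cells left in suspension were kept. The study checked these suspended cells by staining and by immunoblotting for epithelial and sperm markers. It reports that no sperm marker was detected and describes the cells as highly enriched. The descriptions of the replicates differ on whether they were biological or technical, and p-values measure only the spread between these libraries. The study's methods also state fewer replicates than the libraries deposited for whole tissue caput and cauda, and every library was used.

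Library totals ran from 1243398 to 2135501 counts for whole tissue and from 89039 to 362867 for epithelial cells. The corpus was sampled least in both preparations, with means of 1317112 counts in whole tissue and 108075 in epithelial cells (n = 2 each). Each library was used as a replicate of its own.

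The mature sequences of both arms are shown because the arms differ in seed and, as the counts show, widely in level. Capitals mark the seed, bases 2 to 8, and the sequences are from RefSeq (GRCm38.p6).
miR-22-3p: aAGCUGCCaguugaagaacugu
miR-22-5p: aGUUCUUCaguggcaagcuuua
Both products are 22 bases long. On the plus strand of chromosome 11, miR-22-5p lies at chr11:75463734-75463755 and miR-22-3p at chr11:75463772-75463793, inside a hairpin of 95 bases at chr11:75463716-75463810. The longest uninterrupted run of base pairs between the arms was 11 pairs. In the GENCODE annotation of GRCm38, this hairpin lies wholly in exon 2 of both Mir22hg transcripts and in exon 2 of 1 transcript of the protein-coding gene Tlcd2. None of the 1679 mature miRNAs in the RefSeq table shares the seed of miR-22-3p or that of miR-22-5p. RefSeq entries were found, by current name, for 755 of the 900 whole tissue names and 513 of the 677 epithelial names.

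miR-22-3p was among the 6 most abundant miRNAs of every library. In whole tissue its caput counts were 228733, 279518 and 297806, its corpus counts 132450 and 146695, and its cauda counts 208224, 193130 and 200330. These counts were 13.1, 16.2 and 13.9% of all counts in the caput libraries, 10.7 and 10.5% in the corpus libraries and 11.7, 13.2 and 12.8% in the cauda libraries. Caput and cauda libraries overlapped in this share, and both corpus libraries lay below all others. With the library as the unit, the mean share was 14.4% ± 1.59 for the caput (SD, n = 3), 10.6% ± 0.0742 for the corpus (SD, n = 2) and 12.6% ± 0.792 for the cauda (SD, n = 3).

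Caput libraries of whole tissue ranked miR-22-3p 1, 1 and 2, corpus libraries ranked it 2 and 3, and all 3 cauda libraries ranked it 2. It shared the lead in the caput with miR-148a-3p, a member of the miR-148 and miR-152 family, which had a mean share of 13.4% ± 1.72 (SD, n = 3). miR-148a-3p led in caput replicate 3 with 15.2% against 13.9% for miR-22-3p, and the ranges of both miRNAs overlapped. In the corpus, miR-148a-3p (12.0% ± 0.61) and miR-10b-5p (11.1% ± 0.726) had the higher mean shares. miR-143-3p, a smooth muscle miRNA, took 26.1% ± 1.19 (SD, n = 3) of the cauda counts and stood above miR-22-3p in each cauda library. miR-22-3p and miR-26a-5p (11.7% ± 1.34) followed it with overlapping shares. The other miRNAs among the 5 largest mean shares of a region were miR-191-5p (8.42% ± 0.253) and miR-10a-5p (7.34% ± 0.522), both in the caput.

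Epithelial cells gave miR-22-3p counts of 32993 and 25980 for the caput, 7240 and 4502 for the corpus, and 18425 and 13511 for the cauda. These were 9.09 and 8.00% of the caput libraries, 5.70 and 5.06% of the corpus libraries and 6.50 and 7.55% of the cauda libraries. The regions did not overlap in this share, with the caput highest and the corpus lowest. Means were 8.54% ± 0.775, 5.38% ± 0.452 and 7.02% ± 0.736 (SD, n = 2 each). miR-22-3p ranked 3 in each caput and cauda library and 6 in each corpus library. miR-143-3p led in all 6 epithelial libraries, with 12.4 and 17.8% of the caput libraries, 20.1 and 21.9% of the corpus libraries and 30.1 and 17.9% of the cauda libraries.

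**Figure D1:**
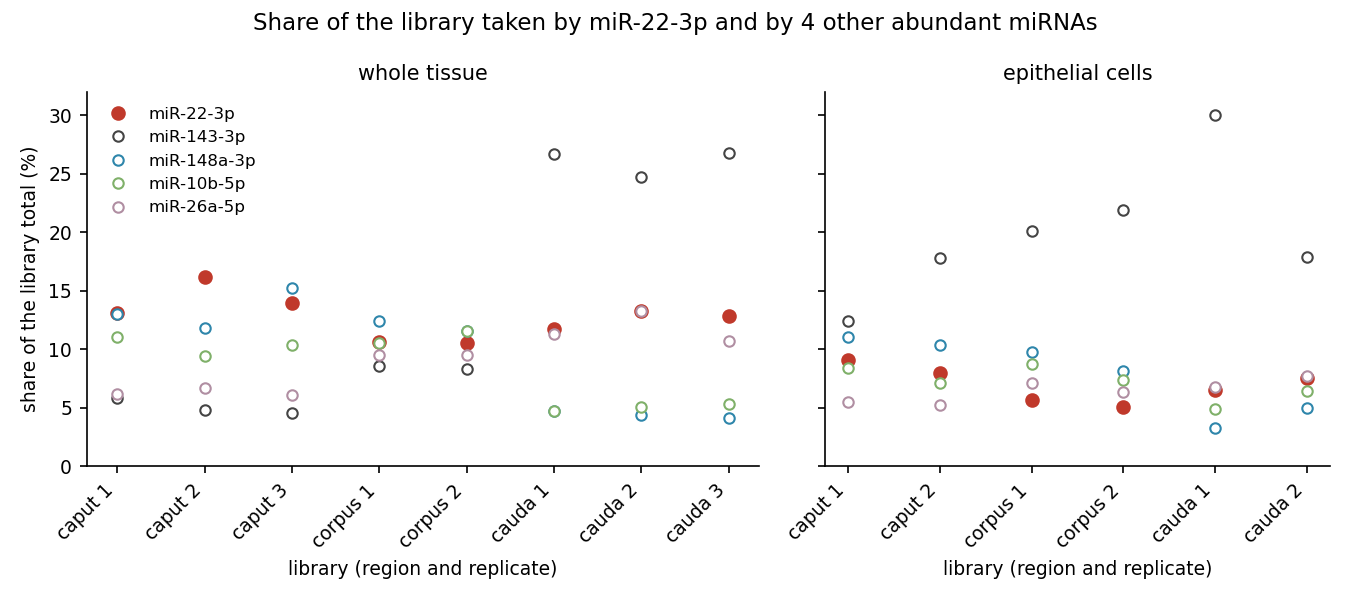
Share of the library total (percent) for miR-22-3p (filled) and 4 other abundant miRNAs (open) in each of the 8 whole tissue and 6 epithelial libraries. miR-22-3p lay between 10.5 and 16.2% in whole tissue and between 5.06 and 9.09% in epithelial cells, while miR-143-3p reached 26.8% of a whole tissue cauda library.

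A share falls when another miRNA takes more of the library, and miR-143-3p did so toward the cauda of whole tissue, from a mean of 5.06% ± 0.703 in the caput. With miR-143-3p left out of the total, an alternative chosen after seeing the data, miR-22-3p took between 13.96 and 17.0% of the whole tissue caput libraries, 11.7 and 11.5% of the corpus libraries, and 16.0, 17.6 and 17.5% of the cauda libraries. The cauda mean was then the highest (17.0% ± 0.912, against 15.2% ± 1.62 in the caput), with overlapping ranges, and the corpus remained lowest. In epithelial cells the same calculation gave 10.4 and 9.73% for the caput, 7.13 and 6.47% for the corpus and 9.30 and 9.19% for the cauda, in the same order of regions as with the full total. The order of caput and cauda in whole tissue therefore depended on the total used, and the low corpus did not.

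miR-22-5p was scarce. In whole tissue the caput libraries held 56, 30 and 40 counts, the corpus libraries 15 and 14, and the cauda libraries 43, 36 and 42. Its share of the library was 0.00228% ± 0.000818 for the caput (n = 3), 0.00111% ± 0.000141 for the corpus (n = 2) and 0.00253% ± 0.000143 for the cauda (n = 3), all SD. Both corpus libraries were below every caput and cauda library, and the caput range enclosed the cauda range. Counting error alone was large at this depth: the 95% Clopper-Pearson interval of corpus replicate 1 ran from 0.000675 to 0.00199% and that of cauda replicate 1 from 0.00175 to 0.00326%. The interval of corpus replicate 1 overlapped those of all 3 cauda libraries, and that of corpus replicate 2, up to 0.00169%, lay below all 3. These intervals cover counting error only. Among all miRNAs of a whole tissue library, miR-22-5p ranked between 203 and 294.

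In epithelial cells miR-22-5p had 27 and 23 caput counts, 3 and 2 corpus counts, and 14 and 10 cauda counts. Its share was 0.00726% ± 0.000256 of the caput, 0.0023% ± 8.06e-05 of the corpus and 0.00526% ± 0.000454 of the cauda libraries (SD, n = 2 each). The corpus values rest on counts at or below 3. Regions did not overlap in this share, and their order was that of miR-22-3p. The rank of miR-22-5p in an epithelial library was between 159 and 213.

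To compare regions, counts were scaled to a common library size by TMM (trimmed mean of M-values, which sets aside the most extreme miRNAs) and given as CPM, the usual unit of depth-scaled counts. On this scale miR-22-3p in whole tissue was at 147122, 192819 and 163451 CPM for the caput, 98955 and 96221 CPM for the corpus, and 107165, 118898 and 118104 CPM for the cauda. The regions did not overlap. Their means were 167797 ± 23156 (n = 3), 97588 ± 1933 (n = 2) and 114722 ± 6557 CPM (n = 3), so the order was caput, cauda, corpus.

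In epithelial cells miR-22-3p reached 102667 and 83704 CPM in caput libraries, 58747 and 45977 CPM in corpus libraries, and 68606 and 64532 CPM in cauda libraries. The order was again caput, cauda, corpus with no overlap, and the corpus and cauda libraries were the closest neighbours. Means were 93186 ± 13409, 52362 ± 9029.9 and 66569 ± 2881 CPM (SD, n = 2 each). The preparations came from separate tables and pools and were not tested against each other. Side by side, each epithelial mean was below the whole tissue mean of the same region.

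For miR-22-5p the whole tissue values were 36.0, 20.7 and 22.0 CPM for the caput, 11.2 and 9.18 CPM for the corpus, and 22.1, 22.2 and 24.8 CPM for the cauda. The corpus was lowest, and caput replicate 1 alone raised the caput mean (26.2 ± 8.51 CPM, n = 3) above the cauda mean (23.0 ± 1.51 CPM, n = 3), with the other caput libraries below every cauda library. In epithelial cells the values were 84.0 and 74.1 CPM for the caput, 24.3 and 20.4 CPM for the corpus, and 52.1 and 47.8 CPM for the cauda. These regions did not overlap, and each epithelial mean (79.1 ± 7.01, 22.4 ± 2.77 and 49.9 ± 3.09 CPM, n = 2 each) was above the whole tissue mean of its region. The arms thus stood on opposite sides between the preparations, as values that were not tested.

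**Figure D2:**
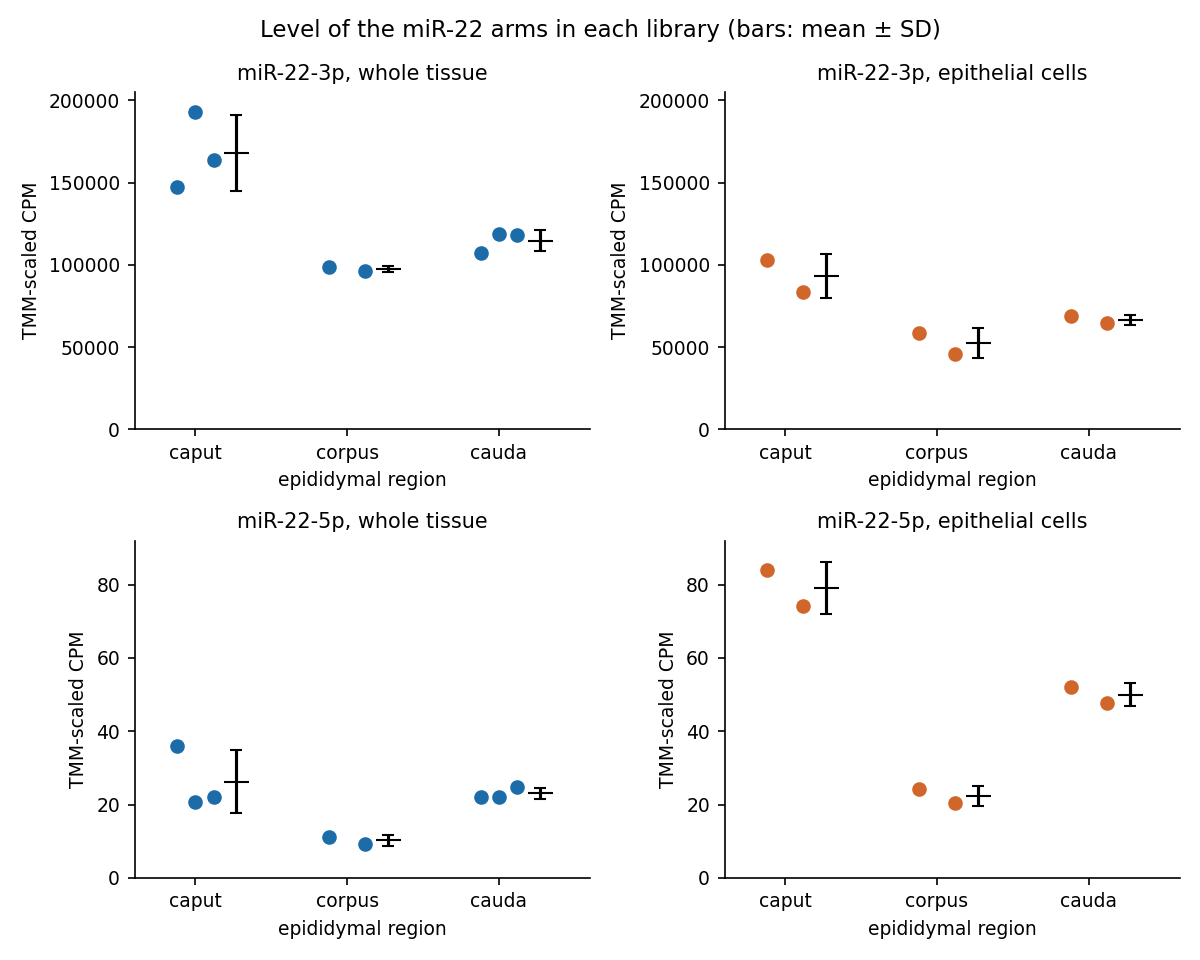
Level of each miR-22 arm as TMM-scaled CPM (vertical axes from 0) by region, with whole tissue on the left and epithelial cells on the right; points are libraries and bars are mean ± SD. Both corpus libraries lay lowest in each panel, at 98955 and 96221 CPM for miR-22-3p and 11.2 and 9.18 CPM for miR-22-5p in whole tissue.

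The corpus and cauda were compared by limma-voom, fitted over all libraries of a preparation and adjusted by Benjamini-Hochberg over all miRNAs with a mean count above 10 in either region. The call needed both an adjusted p under 0.05 and a fold of 2 or more. Both arms passed this count filter in each preparation, miR-22-5p of epithelial cells through the caput or cauda alone, since its mean counts from caput to cauda were 25, 2.5 and 12. In whole tissue 1 of the 2 arms, miR-22-5p, was called, as a rise toward the cauda. Among all 341 miRNAs tested 93 were called, or 27.3%, and 49 were called as rising, or 14.4%. The call of 1 arm is set against that background and is no result about miR-22 as a whole.

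miR-22-5p rose from corpus to cauda by a log2 fold change of 1.16 ± 0.34 (SE), or 2.23-fold, with a 95% interval from 1.31-fold to 3.79-fold (limma-voom, adjusted p = 0.0172). All 3 cauda libraries were above both corpus libraries. The call was lost without corpus replicate 1 (log2 fold change 1.31, adjusted p = 0.0585), without corpus replicate 2 (1.01, adjusted p = 0.116) and with the DESeq2 Wald test (1.22, adjusted p = 0.0586). Over the alternatives other than leaving out a single library the adjusted p ran from 0.00579 to 0.0586, with 0.0105 for a fit without any caput library. Leaving out caput replicate 1 gave 0.00452.

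miR-22-3p in whole tissue gave a log2 fold change of 0.23 ± 0.11 (SE) from corpus to cauda, or 1.17-fold, with a 95% interval from 0.992-fold to 1.39-fold (limma-voom, adjusted p = 0.094). It was not called. All 3 cauda libraries were above both corpus libraries, and the interval lies below a 2-fold change. Without any caput library in the fit the adjusted p was 0.0435, within a range from 0.000696 to 0.132 over the alternatives other than leaving out a single library and up to 0.291 with those, always at less than 2-fold. Whether the arms changed by different amounts is given by the arm ratio below.

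In epithelial cells miR-22-3p was not called between corpus and cauda, where 21 of 192 miRNAs, or 10.9%, were called. Its log2 fold change was 0.36 ± 0.18 (SE; limma-voom, adjusted p = 0.217), with both cauda libraries above both corpus libraries. The value was 0.53 without corpus replicate 1 and 0.18 without corpus replicate 2. miR-22-5p passed the count filter of this contrast only through the cauda, so its fitted value, 0.95 ± 0.52, is given without a test. Whether the preparations differed in these changes was not tested.

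The contrasts with the caput are given as descriptions. From caput to corpus the log2 fold change of miR-22-3p was -0.77 ± 0.11 (SE) for whole tissue and -0.83 ± 0.18 for epithelial cells, which puts the caput 1.71-fold and 1.78-fold above the corpus. miR-22-5p gave -1.30 ± 0.34 for whole tissue and -1.58 ± 0.49 for epithelial cells. From caput to cauda miR-22-3p gave -0.54 ± 0.10 in whole tissue and -0.48 ± 0.18 in epithelial cells, and miR-22-5p gave -0.14 ± 0.23 and -0.63 ± 0.35. Both contrasts share the caput libraries. By the rule above, 29.9% of 334 miRNAs were called from caput to corpus and 53.2% of 355 from caput to cauda in whole tissue. In epithelial cells the shares were 12.2% of 205 and 25.9% of 216. Nothing is read from these shares for miR-22.

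Scaling moved these values for all miRNAs at once. In whole tissue the median log2 fold change of all miRNAs tested from caput to cauda was -0.05 with TMM, 0.30 with library totals and 0.66 with totals without miR-143-3p. The value of miR-22-3p over the same scalings was -0.54, -0.19 and 0.17, so its sign turned with the last, which was chosen after seeing the data. Relative to the median of all miRNAs tested, miR-22-3p was at -0.50 under each of these scalings from caput to cauda, and at -0.72 from caput to corpus. The relative value from corpus to cauda was 0.18 under each. A scaling shifts each miRNA and the median by nearly the same amount, so this agreement was fixed in advance. It is no evidence of a change. miR-22-5p changed sign from caput to cauda in whole tissue with library totals (0.21), while relative to the median it lay between -0.10 and -0.09 over the same scalings. In epithelial cells miR-22-3p kept its sign under each scaling, and relative to the median it was at -0.68 from caput to corpus and -0.48 from caput to cauda with TMM.

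The direction of the other calls moved with the scaling as well. From caput to corpus in whole tissue 47 miRNAs were called as rising and 53 as falling with TMM, against 76 and 35 with library totals and 83 and 30 with totals without miR-143-3p. From caput to cauda, over the same scalings, 99, 115 and 150 rose and 90, 65 and 51 fell, and from corpus to cauda 49, 50 and 90 rose and 44, 44 and 25 fell. In epithelial cells 13, 18 and 23 rose and 12, 9 and 9 fell from caput to corpus, 30, 39 and 52 rose and 26, 19 and 16 fell from caput to cauda, and 13, 14 and 17 rose and 8, 6 and 5 fell from corpus to cauda.

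The ratio of the arms needs no scaling of libraries. In whole tissue the number of miR-22-3p counts per miR-22-5p count was 4085, 9317 and 7445 for the caput, 8830 and 10478 for the corpus, and 4842, 5365 and 4770 for the cauda. The corpus ratios were above all cauda ratios, and the caput ratios spread over both, with caput replicate 1 the lowest of all 8 libraries. In epithelial cells the ratios were 1222 and 1130 for the caput, 2413 and 2251 for the corpus, and 1316 and 1351 for the cauda. All epithelial ratios were below all whole tissue ratios, a difference between preparations that was not tested. The 95% Clopper-Pearson interval in epithelial corpus replicate 2, with 2 counts of miR-22-5p, ran from 623 to 18593.

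The arm ratio was tested between corpus and cauda by limma on its log2 value, with 0.5 counts added to each arm, over all hairpins with enough counts. The fitted difference was -0.92 ± 0.32 (SE) for whole tissue (limma, adjusted p = 0.209) and was not called. In epithelial cells it was -0.59 ± 0.45, and -0.42 with 1 count added to each arm, a description because the corpus ratios rest on 3 and 2 counts of miR-22-5p. In whole tissue the adjusted p ran from 0.133 to 0.31 over the alternatives with all libraries and from 0.0518, without caput replicate 1, to 0.534 when a library was left out. Of 182 hairpins in whole tissue 0.549% were called, and of 112 in epithelial cells 0.893%. The 95% interval of the whole tissue change ran from -1.65 to -0.18 before adjustment over hairpins.

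**Figure D3:**
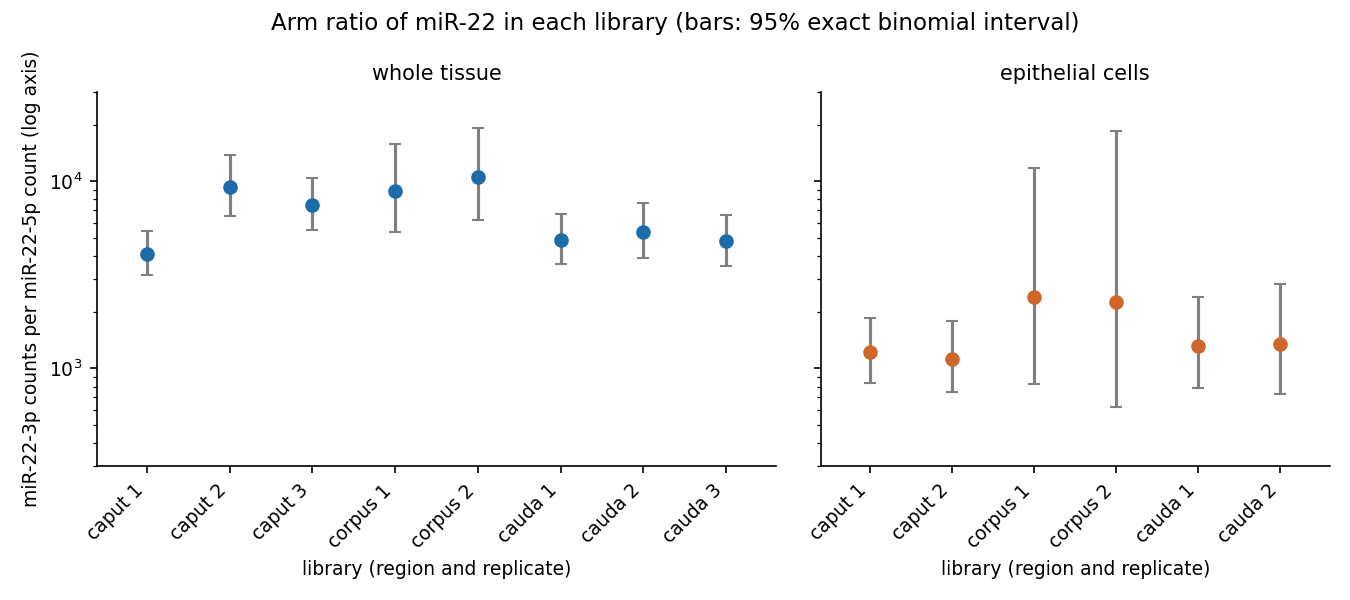
Counts of miR-22-3p per count of miR-22-5p (log axis) in each library; bars are 95% exact binomial intervals, which cover counting error only. Whole tissue ratios lay between 4085 and 10478 and epithelial ratios between 1130 and 2413, with the widest intervals in the epithelial corpus.

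Both preparations held far more of the 3p arm. Ordered by the mean log2 ratio of 3p to 5p, miR-22 was number 2 of 192 hairpins in whole tissue (mean log2 ratio 12.64) and number 2 of 121 in epithelial cells (10.47). miR-143 preceded it in both preparations, with mean log2 ratios of 14.32 and 13.62. It was followed by miR-429 (12.16) and miR-25 (10.33) in whole tissue and by miR-27b (10.12) and miR-25 (9.88) in epithelial cells. Where the 5p arm is near 0 the count added to each arm bounds the ratio: over all libraries miR-429 had 2 counts of its 5p arm in whole tissue and miR-25 had 1 in epithelial cells. By counts pooled over libraries, an order chosen after seeing the data, miR-22 was number 3 in whole tissue, behind miR-143 and miR-429, and number 6 in epithelial cells, so its exact place depends on the measure. Hairpins without any 5p count, 1 in whole tissue and 7 in epithelial cells, were left out of these orders. The median hairpin leaned the other way, with log2 ratios of -0.38 and -2.54. When hairpins dominated by the 5p arm were counted by the size of their mean log2 ratio too, miR-22 was number 6 in each preparation, with the same dependence on scarce arms. A hairpin with more counts can show a larger ratio, and miR-22 and miR-143 had the largest 3p totals of those named here.

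Markers of other cell types changed along the duct too. In bulk libraries fewer cells of a type and less RNA per cell cannot be told apart. The smooth muscle list (miR-143 and miR-145, both arms) had all 4 members in each table, with miR-143-3p the most abundant. In whole tissue it summed to 5.90, 4.84 and 4.54% of the caput libraries, 8.65 and 8.36% of the corpus libraries, and between 24.9 and 27.05% of the cauda libraries. All 4 rose from corpus to cauda, where 14.4% of all miRNAs tested were called as rising, but miR-143-5p (mean counts 6 and 21.3) passed the count filter only through the cauda. In epithelial cells it summed to 12.8 and 18.7% of the caput, 20.6 and 23.1% of the corpus, and 31.9 and 18.5% of the cauda libraries, with 0 of 3 tested members called in any contrast (beside 12.2, 10.9 and 25.9% of all miRNAs). Smooth muscle markers were thus not absent from the libraries labelled as epithelial cells. Their part in the miR-22 levels was not tested.

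The epithelial list (5 members of the miR-200 family) summed to a mean of 1.78, 1.72 and 0.869% in whole tissue caput, corpus and cauda. From corpus to cauda 2 of 5 fell, beside 44 of all 341 miRNAs falling and 27.3% called in either direction. In epithelial cells the means were 1.49, 1.87 and 1.73%, and 2 of 5 fell from corpus to cauda, beside 8 of 192 falling and 10.9% called. From caput to cauda 5 of 5 fell in whole tissue, beside 90 of 355 falling, and 0 of 5 were called in epithelial cells. The endothelial list (both arms of miR-126) was close to level in whole tissue, with means of 1.39, 1.56 and 1.85% and 0 of 2 called. In epithelial cells it was 3.17 and 2.44% of the caput, 1.39 and 1.44% of the corpus, and 5.37 and 5.45% of the cauda libraries. The corpus was lowest there, as for both arms of miR-22 and, by mean, for the red blood and germ cell lists below. The endothelial list was highest in the cauda, and both miR-22 arms were highest in the caput. Both endothelial members (2 of 2) fell from caput to corpus and rose from corpus to cauda, beside 12.2 and 10.9% of all miRNAs called. Whether vessel cells bear on the miR-22 levels was not tested.

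The remaining lists were small in share. Their calls from corpus to cauda stand beside 27.3% of all miRNAs called in whole tissue, 14.4% as rising, and 10.9% called in epithelial cells. Striated muscle markers summed to means of 0.00288, 0.0129 and 0.0616% in whole tissue caput, corpus and cauda. The corpus libraries were at 0.00659 and 0.0192%, and the cauda libraries at 0.0155, 0.0555 and 0.114%. From corpus to cauda 0 of 5 were called, with fitted log2 fold changes from 1.66 to 3.73. Of these, miR-133b-3p, miR-206-3p and miR-208b-3p passed the count filter only through the cauda. In epithelial cells the means were 0.0339, 0.0607 and 0.0401%, with 0 of 1 called. Leukocyte markers took 0.0916, 0.142 and 0.217% in whole tissue, with 1 of 5 rising from corpus to cauda. miR-155-5p, not called there, passed the count filter only through the cauda. In epithelial cells leukocyte markers took 0.0608, 0.0623 and 0.156%, with 1 of 2 rising. Red blood cell markers took 0.00773, 0.0272 and 0.122% in whole tissue, with 1 of 3 rising, and 0.0379, 0.0322 and 0.23% in epithelial cells, with 2 of 3, of which miR-451 passed the count filter only through the cauda, as did miR-144-3p, the member not called. Germ cell markers (miR-34b, miR-34c and miR-449a) took 0.384, 0.445 and 1.03% in whole tissue, with 5 of 5 rising from corpus to cauda. In epithelial cells the means were 0.367, 0.192 and 0.394%, with 0 of 4 called. Of those tested, miR-34b-3p and miR-449a-5p passed the count filter only through the cauda. The epithelial cauda libraries differed, at 0.183 and 0.605%, and the lower one lay below both corpus libraries (0.196 and 0.188%). No marker listed in a table was at 0 in every library. Their part in the miR-22 levels was not tested.

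Other miRNAs lie near the hairpin on chromosome 11. RefSeq places 24 other mature miRNAs within 5 Mb, of which 15 were in the whole tissue table and 12 in the epithelial table, where miR-451a and the miR-193a arms carry their older names, miR-451 and miR-193. Those with enough counts were miR-132-3p, known from neurons, the erythroid miR-144 arms and miR-451a, both miR-423 arms, miR-193a-3p and miR-365-3p. The mature miR-365-3p also arises from a hairpin on another chromosome, and its counts cannot be assigned to either. miR-144-3p and miR-451a are also red blood cell markers.

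In whole tissue 4 of 8 tested neighbours were called from corpus to cauda, beside the 27.3% called among all. miR-193a-3p (log2 fold change 1.59 ± 0.19, SE), miR-144-5p (1.55 ± 0.57) and miR-365-3p (1.24 ± 0.22) rose, and miR-423-5p fell by 1.17 ± 0.22. From caput to corpus 2 of 7 were called, both rising (miR-144-3p and miR-451a), beside 29.9% of all. With library totals 4 of 8 and 3 of 7 were called in these contrasts, beside 27.6 and 33.2% of all. From caput to cauda all 8 tested were called, 6 rising and 2 falling, with a median log2 fold change of 1.95 beside -0.05 for all miRNAs, and beside 53.2% called. The miR-423 arms fell and the others rose there (with library totals 7 were called, without miR-423-3p, beside 50.7% of all), while miR-22-3p stood at -0.54 and miR-22-5p at -0.14. Some neighbours passed the count filter only through the region where they were high (miR-144-5p had mean counts of 6.33, 10 and 39.7 from caput to cauda, and miR-144-3p had 5.67, 21.5 and 49), so these counts support nothing about the group. In epithelial cells 0 of 5, 1 of 7 and 2 of 7 tested neighbours were called from caput to corpus, corpus to cauda and caput to cauda. miR-451 from corpus to cauda (mean counts 6.5 and 72) and miR-144-3p from caput to cauda (3 and 11.5) passed the filter only through the cauda, where they are high, so their fitted log2 fold changes, 2.23 ± 0.46 and 2.18 ± 0.67, are descriptions. From caput to cauda miR-451 rose by 1.21 ± 0.30, on mean counts of 40 and 72. limma-voom made these calls, beside 12.2, 10.9 and 25.9% of all miRNAs.

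The miRNAs with the pattern most like miR-22-3p were found by Pearson correlation of log2 TMM CPM, a description without a p, since libraries of a region share that region. Over the 8 whole tissue libraries and 359 miRNAs these were miR-191-3p (r = 0.966, Spearman's rho = 0.952), miR-92b-3p (r = 0.958, rho = 0.929), miR-107-3p (r = 0.956, rho = 0.905), miR-181a-5p (r = 0.953, rho = 0.952) and miR-192-5p (r = 0.953, rho = 0.905). Each was highest in the caput and lowest in the corpus by its mean. miR-107-3p, for example, was at 228 ± 27.4 CPM for the caput (n = 3), 48.7 ± 3.98 for the corpus (n = 2) and 77.3 ± 8.23 for the cauda (n = 3). miR-191-3p was scarce, at 12.1 ± 2.33, 1.40 ± 0.129 and 3.46 ± 0.802 CPM. miR-22-5p was number 104 in this order (r = 0.575, rho = 0.381), number 59 with library totals (r = 0.461) and number 127 by rho. With library totals miR-181a-5p fell to number 13 (r = 0.73), and the other 4 stayed among the closest 5.

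Over the 6 epithelial libraries and 215 miRNAs the closest patterns were those of miR-192-5p (r = 0.963, rho = 0.943), miR-22-5p (r = 0.946, rho = 1), miR-125a-5p (r = 0.942, rho = 0.943), miR-582-5p (r = 0.941, rho = 0.986, at 0 CPM in both corpus libraries) and miR-148a-5p (r = 0.912, rho = 0.829). miR-192-5p, a miRNA known from gut and kidney epithelium, was in the closest 5 of both preparations. It had 4248 ± 188 CPM in the whole tissue caput (n = 3), 1859 ± 82.5 CPM in its corpus (n = 2) and 2329 ± 174 CPM in its cauda (n = 3). In epithelial cells it was at 3052 ± 661, 1718 ± 221 and 2412 ± 344 CPM (SD, n = 2 each). With library totals miR-148a-5p was number 6, and by rho it was number 13. The other arm of miR-22 was thus number 2 of 215 in epithelial cells and number 104 of 359 in whole tissue by Pearson correlation with TMM, where its counts in caput replicates spread from 30 to 56.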

How the data were processed

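After trimming, screening and alignment to mm10 and to mature miRNAs, the authors deposited unnormalized expected counts for each mature miRNA (submitters' processing notes: CASAVA 1.8.2, Bowtie 1.1.1, limma). How reads matching several miRNAs were divided is not given in the sources used here, and both miR-22 arms held whole counts. The deposited epithelial counts carried an added 0.001, which was removed. Regions came from the sample titles.

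Counts were rounded and scaled by TMM with edgeR 4.0.16. Tests used limma-voom (limma 3.58.1 under R 4.3.3), with region means in 1 fit per preparation. The steps were tested on simulated data with planted changes larger than those seen for miR-22. That test does not show how well changes of the size seen for miR-22 are found. Intervals and figures used SciPy 1.17.1 and matplotlib 3.10.9, and annotation was GENCODE mouse release 21. DESeq2 1.42.0, edgeR's quasi-likelihood test, other scalings and filters, a replicate block and leaving out each library were alternatives.

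Named miRNAs are both arms of miR-22, its neighbours within 5 Mb, the marker lists, miRNAs sharing a seed, the 5 with the largest mean share of each region, the 5 most correlated with miR-22-3p and the 2 hairpins on each side in arm ratio. The members and lists were chosen with earlier results of these data known. If the replicates are technical, the p-values are too small.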

Additional observations from a re-analysis of the deposited data

How the results depend on the processing

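Between corpus and cauda, neither arm changed direction under any alternative. miR-22-3p was not called under any of them in either preparation: its adjusted p ran from 0.000696 to 0.132 in whole tissue and from 0.0287 to 0.334 in epithelial cells without leaving out single libraries, at changes below 2-fold, the lowest with totals without miR-143-3p. miR-22-5p in whole tissue was called under 9 of 10 alternatives of this kind, and not with the DESeq2 Wald test (1.22, adjusted p = 0.0586). Leaving out each library gave log2 fold changes between 1.01 and 1.31, and the call was lost without either corpus replicate, where the lone corpus library is assumed to vary like the other regions. Leaving out each library, miR-22-3p ranged from 0.20 to 0.28 in whole tissue and from 0.18 to 0.53 in epithelial cells. Epithelial miR-22-5p had no value with at least 10 counts in every library or, from corpus to cauda, without cauda replicate 1. The arm ratio of whole tissue was never called. In epithelial cells, where the arm ratio rests on few corpus counts, its value ran from -0.69 to -0.42, a description without a test. In orders of arm ratios chosen after seeing the data, miR-22 was number 3 in whole tissue and 6 in epithelial cells by pooled counts, and number 2 in both with a pseudocount of 1 or, by pooled counts, with a 5p total above 10.

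Whether replicate numbers pair libraries was unsettled: deviations in regions of 2 mirror each other. Same-numbered libraries correlated from -0.06 to 0.22 in whole tissue and from -0.18 to 0.20 in epithelial cells. Whole tissue caput and cauda gave 0.07 to 0.16, or -0.18 to 0.10 if numbers differed. With a replicate block miR-22-5p from corpus to cauda in whole tissue was at 1.15 (limma-voom, adjusted p = 0.0155), and the calls went from 93 to 101 in whole tissue and from 21 to 22 in epithelial cells.

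The descriptive contrasts moved mainly with the scaling, which shifts all miRNAs together. In whole tissue, with library totals, totals without miR-22-3p and totals without miR-143-3p in turn, miR-22-3p was at -0.44, -0.50 and -0.39 from caput to corpus and at -0.19, -0.22 and 0.17 from caput to cauda. On the same scalings miR-22-5p was at 0.21, 0.18 and 0.58 from caput to cauda, and at -0.90 from caput to corpus without miR-143-3p. Epithelial miR-22-3p was at -0.29, -0.31 and -0.12 from caput to cauda, and at -0.56 from caput to corpus without miR-143-3p. Epithelial miR-22-5p was at -0.45, -0.48 and -0.27 from caput to cauda, at -1.42 with library totals and -1.31 without miR-143-3p from caput to corpus, and at -1.78 there with edgeR, where the cause was not tested. Totals without miR-143-3p were chosen after seeing the data.

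Leaving out each library, miR-22-3p ranged from -0.84 to -0.61 (caput to corpus) and from -0.59 to -0.37 (caput to cauda) in whole tissue, and from -0.59 to -0.27 (caput to cauda) in epithelial cells, where miR-22-5p ranged from -0.68 to -0.48. In whole tissue miR-22-5p from caput to cauda ranged from -0.20 to 0.14.

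As TMM-scaled CPM in percent, miR-22-3p stood at 16.8, 9.76 and 11.5% in whole tissue caput, corpus and cauda. Without miR-143-3p in the total it stood at 11.6 and 17.0% in whole tissue corpus and cauda and at 10.1, 6.80 and 9.25% in epithelial caput, corpus and cauda. Within 1 Mb only 1 neighbour was tested, and 0, 0 and 1 were called in whole tissue from caput to corpus, corpus to cauda and caput to cauda, and 0 in each contrast of epithelial cells. Over all miRNAs 29.9, 27.3 and 53.2% were called in whole tissue and 12.2, 10.9 and 25.9% in epithelial cells. With library totals 3 of 7 neighbours were called from caput to corpus in whole tissue, beside 33.2% of all.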
